A study of Homo sapiens with 3 samples.

Results

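This account covers the SMAD2/3 peaks in 5 human genes that hold very strong binding sites at both an early and a late time of TGFβ stimulation, namely VAV2, MAMDC2, SPOCK1, KCTD16 and RYBP. The members are all peaks that overlap a fixed hg19 span for each gene, with a stretch of downstream flank added to RYBP. The spans hold 21 of the 5486 deposited peaks, 11 of 3280 in the 16 h list and 10 of 2206 in the 1.5 h list. The genes were chosen from the peak scores of their strongest sites in these same lists, with no numeric threshold given. The height and the persistence of those sites are therefore a description, not a finding.

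Chromatin came from MCF10A MII, an H-Ras-transformed line of human breast epithelium, and was immunoprecipitated with an antibody to SMAD2/3. Cells had received TGFβ3 at 5 ng/ml for 16 h or for 1.5 h. Both libraries come from the same line, and the only other sample, input DNA of untreated cells, has no peak list here. There was 1 library per time and no replicate, so no value has an error, no difference between the times was tested, and sequencing depth is unknown from the lists. SMAD2/3 binding in cells without added TGFβ3 was not analysed here.

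TGFβ ligands bind receptor kinases at the cell surface, which phosphorylate SMAD2 and SMAD3. These then join SMAD4, accumulate in the nucleus and bind regulatory DNA together with other transcription factors. The 5 genes were grouped by their peak scores, not by a common pathway. VAV2 is a guanine nucleotide exchange factor. MAMDC2 and SPOCK1 encode secreted extracellular matrix proteoglycans, the second also called testican-1. KCTD16 is an auxiliary subunit of GABA-B receptors, and RYBP is a component of variant Polycomb repressive complexes.

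Each gene had a lead site, the peak of highest score in its span, and the leads of the 2 times overlapped in all 5 genes. A score is the authors' value per peak from the peak caller MACS, where a higher one means stronger evidence of enrichment. Since it depends on depth as well as on binding, scores of both libraries are set side by side without a ratio, and ranks within each list (1 being the highest score) are given with them.

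The VAV2 lead was at chr9:136739050-136739902 (hg19) at 16 h and at chr9:136738785-136740038 at 1.5 h. It scored 1650 at 16 h and 1250 at 1.5 h, which were ranks 1 and 3 of the lists. It was the sole peak in the 231 kb VAV2 span at either time. The nearest other peak of the same list lay 244.6 kb away at 16 h and 1593.5 kb away at 1.5 h. The site lay near the middle of the span, 118.5 kb at 16 h from the edge where VAV2 transcription starts.

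In MAMDC2, the lead was at chr9:72735636-72736261 at 16 h and at chr9:72735482-72736330 at 1.5 h. Its score was 1116 at 16 h and 670 at 1.5 h, with ranks 2 and 14. This lead lay 77.9 kb into the span from the side of the gene's start, and it had close companions at both times. The SPOCK1 lead was at chr5:136806123-136806786 at 16 h and at chr5:136806133-136806740 at 1.5 h. It scored 724 at 16 h and 361 at 1.5 h, with ranks 4 and 50, the widest gap in rank among the 5 leads. It lay 29.5 kb at 16 h from the upper-coordinate edge of a 525 kb span.

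The KCTD16 lead had the opposite order of ranks. It was at chr5:143569360-143570004 at 16 h and at chr5:143569336-143570019 at 1.5 h, and scored 414 at 16 h (rank 28) and 942 at 1.5 h (rank 6). It lay 20.7 kb from the span edge on the side of the KCTD16 start, beyond which the next protein-coding gene in RefSeq order is YIPF5. The lead taken in with RYBP was at chr3:72387562-72388628 at 16 h and at chr3:72387739-72388898 at 1.5 h. It scored 654 at 16 h (rank 6) and 989 at 1.5 h (rank 4). This site lay 111.9 kb at 16 h from the edge where RYBP transcription starts and 18.1 kb from the far edge of its downstream flank. The next coding gene on that far side is PROK2 and the next on the other side is SHQ1.

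**Figure D1:**
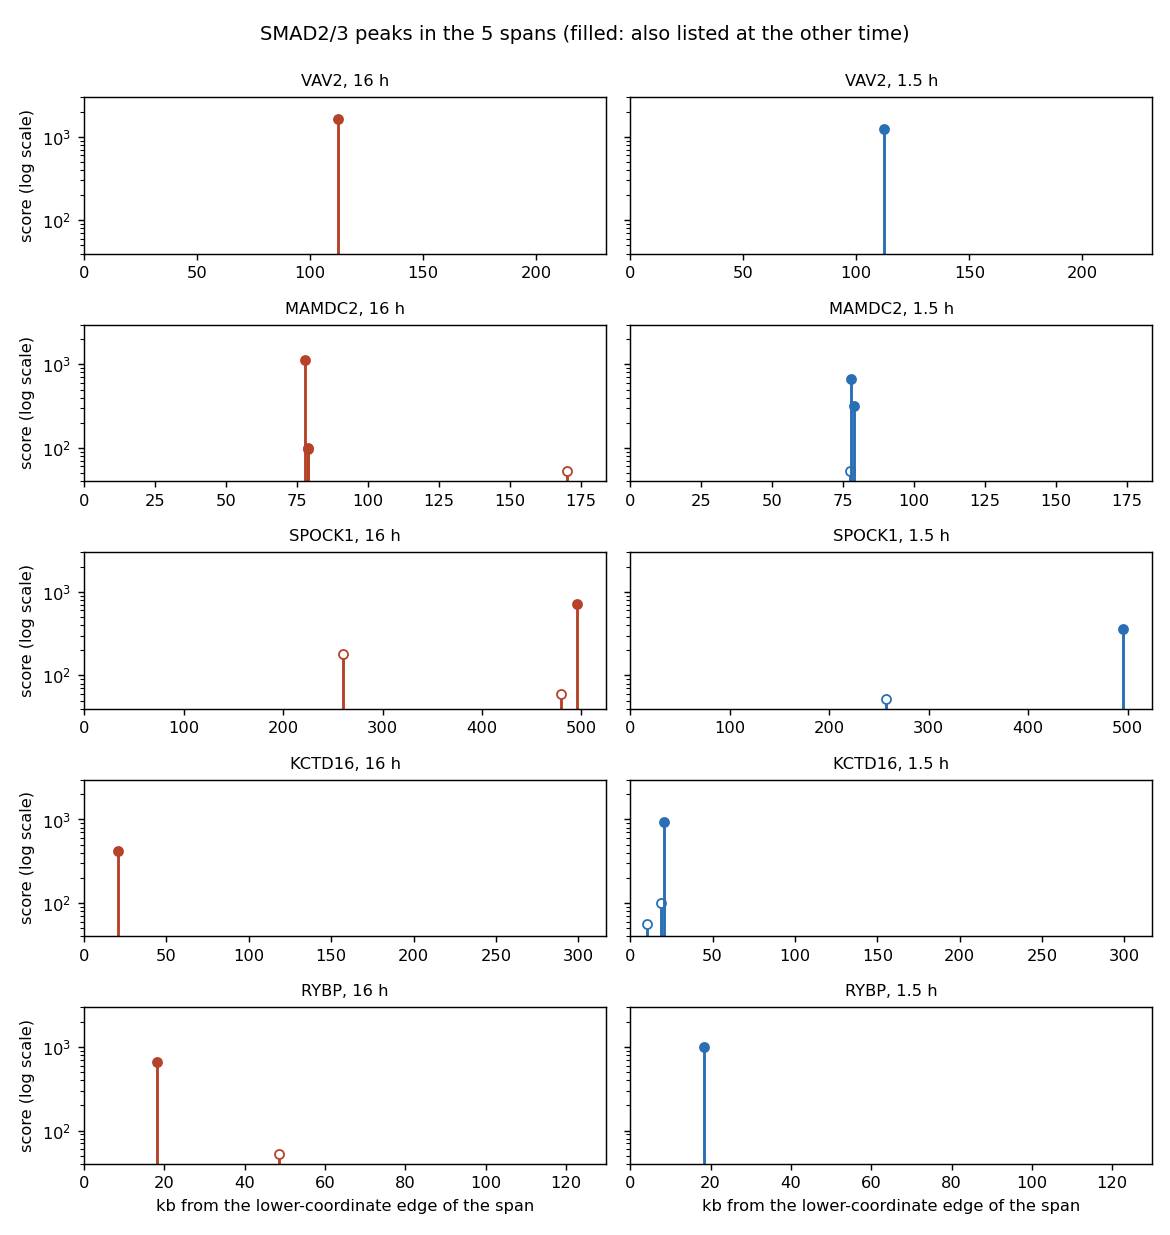
Score of every SMAD2/3 peak (y axis, log scale) against its distance in kb from the lower-coordinate edge of the span (x axis), with a row per gene, 16 h on the left and 1.5 h on the right. Filled circles overlap a peak of the other list and open circles do not, and each lead stands at the same place at both times while most lesser sites are open.

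Gene structure was not resolved further, because no hg19 annotation was used and the coordinates of the RefSeq gene table belong to another build, GRCh38. Reading direction was available for VAV2, MAMDC2, KCTD16 and RYBP in the promoter set used, which had no entry for SPOCK1. In these 4 genes no peak lay at the edge of the span where the gene starts, and the nearest was the KCTD16 peak of 1.5 h centred 10.1 kb from it. Span edges are given to the nearest kb. Whether a site is exonic or intronic is not stated here, and the DNA sequences of the sites were not used here.

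The leads took up most of the summed score of their spans in each list. A high share follows in part from choosing the genes by their strongest sites, and a span with 1 peak gives 100%. No other spans were compared, so the shares are a description. Over the 5 spans they made up 89.4% of the summed score at 16 h and 88.0% at 1.5 h. By gene at 16 h the share was 100% in VAV2 and KCTD16, each with a single peak, 92.7% in RYBP, 81.7% in MAMDC2 and 74.9% in SPOCK1. At 1.5 h it was 100% in VAV2 and RYBP, 87.4% in SPOCK1, 85.8% in KCTD16 and 64.5% in MAMDC2. The lowest share was thus that of SPOCK1 at 16 h and of MAMDC2 at 1.5 h. The MAMDC2 value rests on counting its close neighbours as separate peaks. With peaks under 500 bp apart merged, the MAMDC2 share was 95.5% at 16 h and 100% at 1.5 h, and the lowest share at 1.5 h was that of KCTD16 (85.8%).

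Outside the leads, the spans held 6 lesser peaks at 16 h and 5 at 1.5 h. Counting all span peaks, 7 of 11 at 16 h shared 1 bp or more with a 1.5 h peak, against 16.6% of the whole 16 h list. At 1.5 h, 6 of 10 overlapped a 16 h peak, against 25.3% of the whole 1.5 h list. The 5 leads in each of these counts were chosen for being in both lists. Of the lesser peaks alone, 2 of 6 at 16 h and 1 of 5 at 1.5 h were in both, and all 3 of these belong to the side site of MAMDC2. Joined where they overlap, the 21 peaks form 14 sites, of which 6 were listed at both times, 4 at 16 h only and 4 at 1.5 h only. The 6 are the 5 leads, chosen for this, and the MAMDC2 side site. The whole lists were not joined in this way, so the split has no share to be set against.

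Lesser peaks scored 51.8 to 182 at 16 h (median 78.9) and 52.2 to 316 at 1.5 h (median 56.7). They were 81 to 513 bp wide at 16 h and 92 to 406 bp wide at 1.5 h. Whole lists had a median score of 56.2 at 16 h and of 64.9 at 1.5 h. No lesser peak was among the 100 highest at 16 h, and 1 was at 1.5 h. The lesser peaks thus ran from near the lowest scores listed up to rank 134 at 16 h and rank 68 at 1.5 h. The leads held ranks 1 to 28 at 16 h and 3 to 50 at 1.5 h. A lead is by definition the highest peak of its span, so its place above the lesser peaks there is not a finding.

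**Figure D2:**
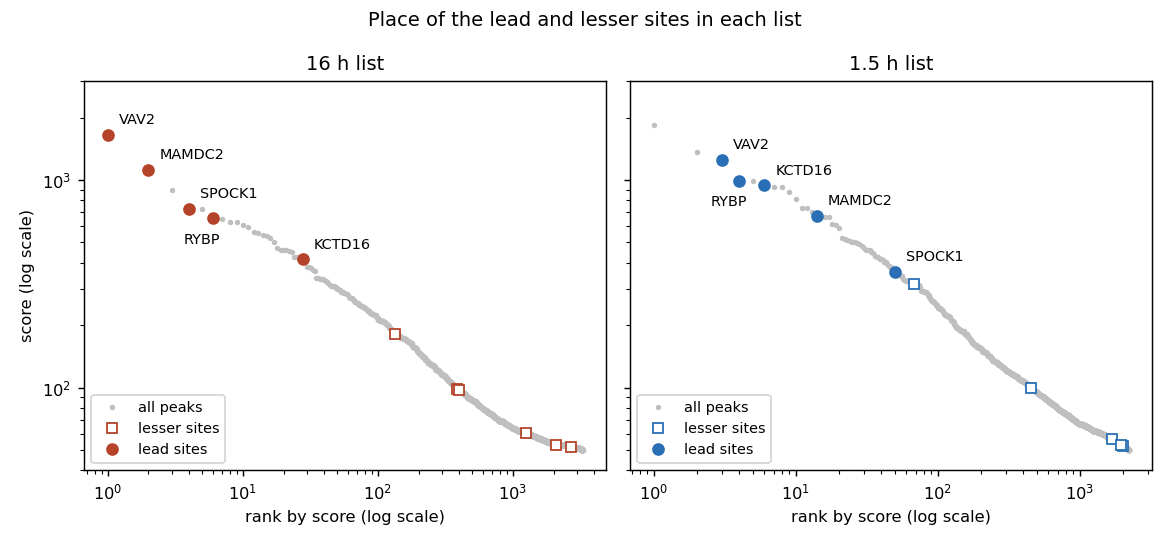
Score (y axis, log scale) against rank (x axis, log scale) of all peaks in the 16 h list, left, and the 1.5 h list, right, with lead sites as labelled filled circles and lesser sites as open squares. The 5 leads hold ranks 1 to 28 at 16 h and 3 to 50 at 1.5 h, while the highest lesser sites hold rank 134 at 16 h and rank 68 at 1.5 h.

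MAMDC2 had the most complex arrangement. Just above its lead in coordinate, a side site was listed as 2 peaks at 16 h and as 1 wider peak at 1.5 h. The 16 h pair was at chr9:72736666-72736903, with a score of 98.9 (rank 384), and at chr9:72736912-72737119, with a score of 97.5 (rank 396), separated by 8 bp. The 1.5 h peak was at chr9:72736705-72737110 and scored 316 (rank 68), the highest of all lesser peaks. Each of the 16 h peaks overlapped it by 199 bp, which was 49.0% of the 1.5 h peak in both cases. Lead and side site were separated by 404 bp at 16 h, against 374 bp at 1.5 h. Whether lead and side site are separate binding sites or pieces of a broader one was not tested.

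A further MAMDC2 peak of 1.5 h, at chr9:72735319-72735410, scored 53.0 and lay 71 bp below the 1.5 h lead and 225 bp below the 16 h lead. With peaks under 500 bp apart joined, the MAMDC2 group ran over 1484 bp at 16 h and 1792 bp at 1.5 h. The remaining MAMDC2 peak was listed at 16 h only, at chr9:72828091-72828173. It scored 53.0, close to the lowest score of the list (50), and lay 91.8 kb from the lead and 91.0 kb from any 1.5 h peak. Of the 1999 peaks in the 16 h list scoring 50 to 60, only 4.75% overlapped a 1.5 h peak.

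SPOCK1 carried a second site of some strength at 16 h. It was at chr5:136570524-136571036, near the middle of the span and 235 kb from the lead, with a score of 182 (rank 134) and a width of 513 bp. No 1.5 h peak overlapped it, but a 1.5 h peak at chr5:136568161-136568300 lay 2223 bp away, with a score of 52.2 (rank 2011) and a width of 140 bp. In the 16 h list as a whole, 52.7% of the 260 peaks scoring 100 to 200 overlapped a 1.5 h peak (95% exact binomial interval 46.4 to 58.9%, counting error only). Listing at 16 h only was thus common in this class. The site stood in the upper part of the class, and of the 117 peaks scoring 200 or more, 83.8% overlapped (interval 75.8 to 89.9%). Another 16 h peak of SPOCK1, at chr5:136790485-136790585, scored 60.3 and lay 15.5 kb from the lead, with no 1.5 h peak within 15 kb.

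In KCTD16, lesser sites were listed at 1.5 h and none at 16 h. The stronger was at chr5:143567571-143567800, 1535 bp below the lead, with a score of 99.2 (rank 451) and a width of 230 bp. The weaker was at chr5:143559005-143559126, 10.2 kb below the lead, with a score of 56.7. The 16 h peak nearest to each was the KCTD16 lead itself, 1559 bp and 10.2 kb away. Of the 1.5 h peaks scoring 80 to 100, 32.4% of 241 were also listed at 16 h (interval 26.5 to 38.7%), and of those scoring 50 to 60, 12.0% of 785 (interval 9.79 to 14.5%).

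The RYBP span held a lesser peak at 16 h, at chr3:72418445-72418525, 29.8 kb from the lead, with a score of 51.8 and a width of 81 bp. Of the 16 h peaks scoring 50 to 60, 4.75% of 1999 overlapped a 1.5 h peak (interval 3.86 to 5.78%). Listing at 16 h only was thus usual at such scores. At 1.5 h the lead was alone in the span. Within 50 kb outside the 5 spans there was no further 16 h peak. At 1.5 h there were 2, at chr3:72541398-72541494 beside RYBP (score 59.7) and at chr9:72646360-72646460 beside MAMDC2 (score 56.3), and neither was listed at 16 h.

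Isolation of the leads varied. No other peak of the same list lay within 50 kb of 2 of the 5 leads at 16 h, VAV2 and KCTD16, and of 3 of 5 at 1.5 h, VAV2, SPOCK1 and RYBP. Among the 100 highest peaks of each list, 44 at 16 h and 33 at 1.5 h were isolated in this sense. VAV2 alone of the 5 genes had an isolated lead at both times. Over their 1387 kb the spans held 7.93 peaks per Mb at 16 h and 7.21 at 1.5 h, in part because spans with peaks were chosen. The lesser peaks alone came to 4.33 per Mb at 16 h and 3.60 at 1.5 h. The whole lists held 1.12 and 0.768 peaks per Mb of the range each covers. The lesser peaks include close neighbours of the MAMDC2 lead. With peaks under 500 bp apart merged, there were 4 lesser peaks at 16 h and 3 at 1.5 h, in place of 6 and 5. No density was computed with merged peaks, and the range of each list also covers stretches outside genes. The densities of spans and whole lists are thus not a like comparison.

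By rank, 3 of the 5 leads (VAV2, MAMDC2 and SPOCK1) stood higher in the 16 h list and 2 (KCTD16 and RYBP) higher in the 1.5 h list. Across all 490 one-to-one pairs of overlapping peaks, each the highest-scoring partner of the other, 51.4% stood higher at 16 h, so the split among the leads is near that of all pairs. All 5 leads were among the 100 highest of both lists, which held 41 such pairs in all. Of the 100 highest peaks, 88 at 16 h and 86 at 1.5 h overlapped a peak of the other list. Listing at both times was thus usual for sites of this strength.

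**Figure D3:**
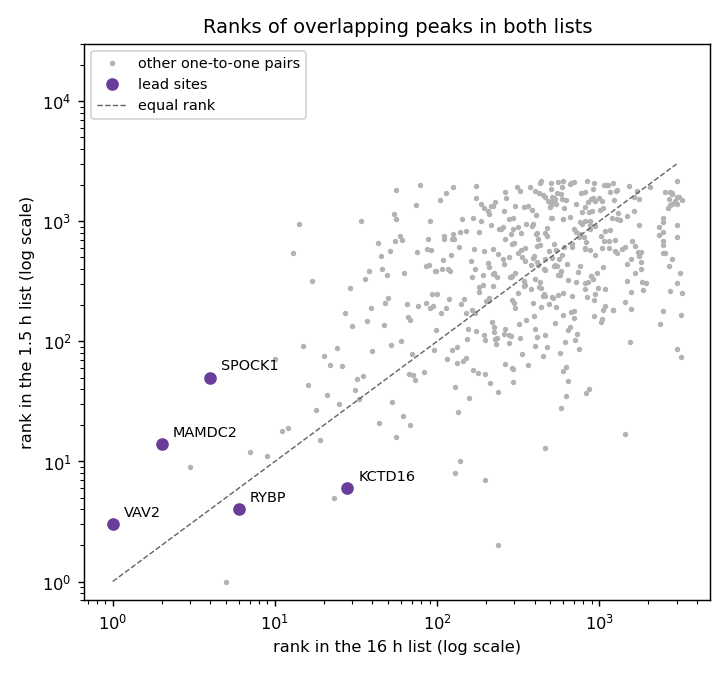
Rank in the 16 h list (x axis, log scale) against rank in the 1.5 h list (y axis, log scale) for one-to-one pairs of overlapping peaks, with the 5 leads labelled and a dashed line at equal rank. VAV2, MAMDC2 and SPOCK1 lie above the line, with ranks of 1, 2 and 4 at 16 h and 3, 14 and 50 at 1.5 h, and RYBP and KCTD16 lie below it, with ranks of 6 and 28 at 16 h and 4 and 6 at 1.5 h.

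The pairs closest to each lead in the log2 ranks of both lists, taken from outside the spans, gave the nearest matches in rank over the 2 libraries. For KCTD16 this was a site at chr2:238341109-238341861 (16 h coordinates), with rank 23 at 16 h and rank 5 at 1.5 h, at a distance of 0.39 log2 units. For MAMDC2 and for RYBP it was chr3:170075049-170075629, with ranks 3 and 9, at distances of 0.87 and 1.54. A site at chr18:73336703-73337245, with ranks 9 and 11, was almost as near to RYBP, at 1.57. Both of these sites stood higher at 16 h, whereas the RYBP lead stood higher at 1.5 h. The chr3 site was also nearest to VAV2, at 2.24, followed by chr20:56592339-56593274, with ranks 5 and 1, at 2.81. This chr20 site had the opposite order of ranks to VAV2. For SPOCK1 it was chr5:17181039-17181874, with ranks 10 and 71, at 1.42. The distance was thus smallest for KCTD16 and largest for VAV2. On a log2 scale the first ranks of a list lie far apart, and the MAMDC2 lead, rank 2 at 16 h, was not among the candidates. The order of the distances therefore does not show how unusual a site is. No gene is assigned to these sites.

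Peak extent was not part of the choice, although wider peaks tend to score higher. The lead peaks were 853 bp wide at 16 h and 1254 bp at 1.5 h in VAV2, and 626 bp at 16 h and 849 bp at 1.5 h in MAMDC2. They were 645 bp at 16 h and 684 bp at 1.5 h in KCTD16, and 1067 bp at 16 h and 1160 bp at 1.5 h in RYBP. SPOCK1 was the exception, with 664 bp at 16 h and 608 bp at 1.5 h. The 16 h peak was thus the narrower one in 4 of 5 leads, against 47.1% of all 490 pairs and 25 of the 41 pairs that were among the 100 highest of both lists. Peak width depends on depth and fragment length as well as on binding, and their part in this was not tested. VAV2 and MAMDC2 were narrower at 16 h although they ranked higher there. Ranked by width in place of score, the leads held places 5 to 20 at 16 h and 4 to 50 at 1.5 h.

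**Figure D4:**
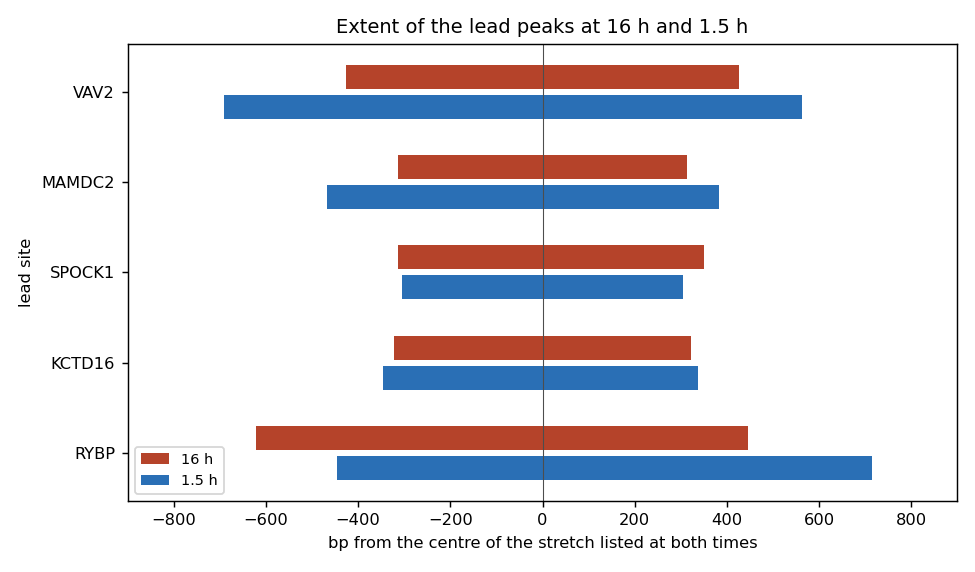
Extent of each lead peak in bp from the centre of the stretch listed at both times (x axis), with the 16 h peak above the 1.5 h peak for each gene. The 16 h peak lies inside the 1.5 h peak in VAV2, MAMDC2 and KCTD16, the 1.5 h peak lies inside the 16 h peak in SPOCK1, and in RYBP the peaks are offset.

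The position of the leads was close at both times in 4 of the 5 genes. Peak midpoints lay 4.5 bp apart in KCTD16, 18.0 bp in SPOCK1, 42.5 bp in MAMDC2 and 64.5 bp in VAV2. The median over all 490 pairs was 61.8 bp, and over the 41 pairs of the highest peaks 45.5 bp. In RYBP the midpoints lay 223.5 bp apart, the 16 h one at the lower coordinate. Both edges of the RYBP lead were lower at 16 h, by 177 bp and 270 bp, so the peak was shifted more than narrowed. In VAV2, MAMDC2 and KCTD16 the whole 16 h peak (100%) lay within the 1.5 h peak and covered 68.0%, 73.7% and 94.3% of it. In SPOCK1 the 1.5 h peak lay wholly within the 16 h peak and covered 91.6% of it. The RYBP overlap of 890 bp was 83.4% of the 16 h peak and 76.7% of the 1.5 h peak. With 1 library at each time, the shift in RYBP could not be set against the spread between replicates.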

How the data were processed

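SMAD2/3 ChIP-seq peak lists of 2 libraries, 16 h and 1.5 h, were analysed. Per the submitters' processing notes, the build was hg19 and the tools were MACS 1.4.2, Bowtie 1.1.0 and Picard. The settings used, and any role of the input library as control, were not given in the sources used here. Per library, the authors deposited 1 list, with a score per peak and no header. The lowest score, 50 at 16 h and 50.02 at 1.5 h, would correspond to a p of 1e-05 on a scale of -10 × log10(p). The peak start and end positions, as deposited, were turned into 1-based coordinates.

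Peaks overlapping the 5 spans, 1387 kb in all, were taken without extension. The members were chosen with earlier results of these data known, as were the sets of peaks they are compared with. Overlap meant at least 1 bp, ties shared the better rank, and percentages over score classes carry 95% exact Clopper-Pearson intervals. No test was run, since the scores chose the members. The named items are the 5 genes with all their peaks and, for each lead, the 2 pairs outside the spans nearest in log2 rank, of which at least the nearest is given. A planned motif search needs hg19 sequence and was not run, and no promoter was used, since no peak lay at the start-side edge of the span in the 4 genes with a known direction. Reading direction and neighbouring genes came from RefSeq GRCh38.p14 by symbol. All 5 genes matched by name for their neighbours. Direction was read from a set of promoters that had no entry for SPOCK1, so its direction was not used. The overlap code was tested on simulated lists and found all planted overlaps. Python 3.11.15, numpy 2.4.6, pandas 2.3.3, scipy 1.17.1 and matplotlib 3.10.9 were used.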

Additional observations from a re-analysis of the deposited data

How the results depend on the processing

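Alternatives covered score minimums, list length, merging, extended spans and the overlap rule. The overlap of all 5 leads held under each one run on it, but this is no check on the leads. All scored at least 361 in both lists and overlapped by at least 68.0% of either peak, so these settings could not part them. Of the summary values, 38 moved by no more than 1.5 times, 13 moved by more and 2 changed sign. With scores of at least 100, each list had 6 span peaks (difference 0) and 0 lesser peaks in both lists at 16 h and at 1.5 h. With scores of at least 60, the spans held 9 peaks at 16 h and 7 at 1.5 h, a difference of 2 against 1 in the full lists. The sign of this difference turned to -1 with equal list lengths (9 peaks at 16 h, 10 at 1.5 h) and with spans extended by 50 kb (11 and 12). Lesser peaks in both lists numbered 0 at either time when neighbours under 500 bp were merged, which joins the MAMDC2 side site to its lead, or when overlap had to cover 50% of both peaks. A gap of up to 500 bp gave 2 at 1.5 h. Ranked by width, the median place of the leads was 13 at 16 h and 19 at 1.5 h, against 4 and 6 by score. No paired analysis was possible because the design has 1 library at each time, and none could be left out. Depth is unknown, so whether a lesser site listed at 1 time was unbound at the other was not tested.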
